A study of Bos taurus with 90 samples.

Results

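The difference between cumulus cells (CCs) and the oocyte they surround was measured inside medium bovine antral follicles, 6.2 to 7.0 mm in diameter. The 16 libraries compared were the CC pool and the single oocyte of 8 follicles, named M1 to M8 here, and they were chosen from the 90 libraries of the series by cell type, size class and follicle number. Of the 10 medium follicles sampled, 2 that the study removed on mapping rates and mitochondrial percentages were left out. The ovaries came from Bos taurus cows at a slaughterhouse, and no genotype or agent is given that separates the groups. The labels do not give the animal of each follicle, and follicles of 1 cow may be among the 8. Each CC library was a small pool of the cells that adhered tightly to the oocyte, and each oocyte library was 1 denuded oocyte. Both were made with the SMART-seq2 protocol, a full-length amplification of polyadenylated RNA, but the oocyte cDNA was amplified over more cycles, so cell type and amplification cannot be told apart.

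The oocyte grows inside the follicle while it stores RNA and protein for the first divisions of the embryo. CCs are granulosa cells that attach to it, reach its surface with fine projections that cross the zona pellucida, and pass it metabolites and small signalling molecules through gap junctions. The oocyte in turn secretes growth factors that hold CCs in their own state and keep them from becoming mural granulosa cells (MGCs), which line the follicle wall. A comparison of CC with oocyte in 1 follicle therefore sets 2 cell types of different lineage, one somatic and one germ line, against each other in the same fluid and in the same animal.

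The counts were listed by Ensembl gene identifier, and no table used here paired the 27270 identifiers with gene names. The cell types were therefore not checked against named markers, and the results are given for classes of genes defined by their levels and for 4 identifiers. A check on identity was made instead with genes chosen in the small and large follicles alone. In 18 small and large oocytes, 194 genes had more than 10 CPM (a count scaled to the total of its library) in every oocyte while every MGC library lay below 0.5 CPM. These 194 genes held between 7.12% and 8.96% of the counts in the medium oocytes, with a median of 8.23%, and between 0.002% and 0.00686% in the medium CC pools. The reverse set held 24 genes, above 10 CPM in every MGC library and in the median CC pool of the small and large follicles and below 0.5 CPM in every oocyte. Their share was 0.0684% to 0.156% of the counts in the medium CC pools and 7.62e-05% to 0.000645% in the medium oocytes. All 16 libraries thus lay on the somatic or the oocyte side that their label gives. The second set was chosen to be high in MGCs too, so the check does not separate CCs from MGCs.

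Expressed relative to the oocyte of the same follicle, the first set reached 0.0223% to 0.0849% of its oocyte level in the CC pools, with the highest value in M8. The second set reached 0.0585% to 0.504% of its CC level in the oocytes, and its highest value was in M1. These ratios hold for the genes of each set only. The second set was chosen to lie below 0.5 CPM in every small and large oocyte, which favours a low ratio. Its ratio therefore does not measure how much CC RNA in general was read in the oocytes. The first set was chosen to lie below 0.5 CPM in every MGC library of those follicles, not in CCs. The source of such reads and their part in the differences below were not tested.

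The total counts overlapped between the cell types. The CC pools held 11777136 to 37122994 counts with a median of 32828073, and the oocytes held 8442938 to 40944034 with a median of 30762201. The lowest totals were those of the CC pool of M5 and of the oocyte of M4. The CC pool of M5 also stood apart in its profile. Over the genes tested, its rank correlation with the other CC pools was 0.835 to 0.927, while the other 7 CC pools reached 0.892 to 0.96 among themselves. The oocytes reached 0.924 to 0.968.

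CC pools and oocytes differed in most of the genes that could be tested. The 14325 genes tested exceeded 1 CPM in 5 or more of the 8 libraries of either cell type, and 9989 of them (69.7%) differed more than 2-fold with an adjusted p under 0.05 in edgeR's quasi-likelihood test with follicle as a block. More of them were higher in oocytes, 5952 genes (41.5%), than in CCs, 4037 genes (28.2%). The split depended on the scaling: of the genes called, 40.4% were higher in CCs with library totals and 48.9% with TMM normalization, which raised the median log2 difference of CC minus oocyte over all genes from -0.55 to -0.08. No gene called with library totals was called in the opposite direction with TMM, with DESeq2's size factors or in DESeq2. P-values measure the spread between follicles, and those from 1 cow would not be independent.

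**Figure D1:**
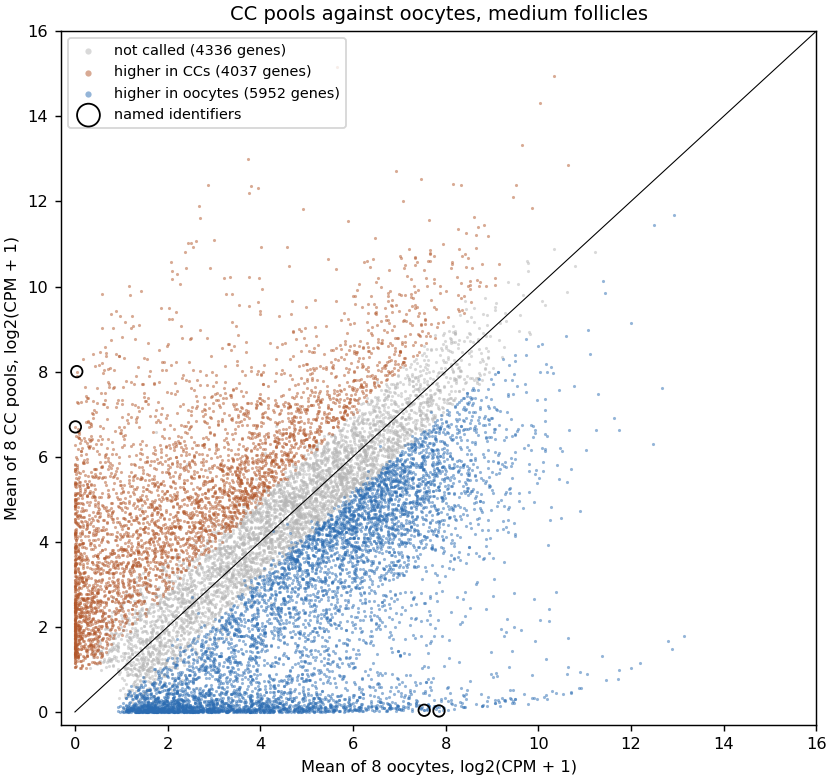
Mean level of each gene tested in the 8 CC pools (vertical axis) against the 8 oocytes (horizontal axis), both as log2(CPM + 1), with 1 point per gene and the line of equal levels. The 4037 genes called higher in CCs lie above the line and the 5952 called higher in oocytes below it, and the 4 named identifiers (circles) lie along the axes, near 0 in one cell type.

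The differences were large. Among the genes higher in CCs, the median log2 difference was 3.23 with quartiles of 1.95 and 5.75. Among those higher in oocytes it was -3.34, with quartiles of -6.38 and -1.94. Differences of more than 64-fold were fitted for 948 genes higher in CCs (23.5%) and for 1625 genes higher in oocytes (27.3%). At the other end, 1058 genes (26.2%) and 1557 genes (26.2%) differed between 2-fold and 4-fold. When the test was made against a 2-fold difference rather than against none, 3404 genes were higher in CCs and 5104 in oocytes.

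For 6918 of the genes tested (48.3%), the 8 CC pools and the 8 oocytes did not overlap. All CC pools lay above all oocytes in 2563 genes (17.9%), and all oocytes lay above all CC pools in 4355 genes (30.4%). Among the genes called, no overlap was seen for 63% of those higher in CCs and for 72.4% of those higher in oocytes. Counts of genes without overlap, and the CPM classes below, rest on library totals and were not recomputed with TMM. TMM shifted the log2 differences by a median of 0.473 toward CCs.

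Most genes were shared in the sense that some transcripts were read in both cell types. Above 1 CPM in all 8 libraries of a cell type were 9781 genes in CC pools and 10587 genes in oocytes, and 7929 of these were in both. Above 100 CPM in all 8 were 781 genes in CC pools and 1640 in oocytes, with 341 in both. Of the 1640 abundant genes of the oocyte, 85 (5.18%) stayed below 1 CPM in every CC pool. In the other direction, 0 of the 781 abundant CC genes stayed below 1 CPM in every oocyte. At the lower limit of 10 CPM the same comparison gave 446 of 6764 genes (6.59%) for oocytes and 92 of 5417 genes (1.7%) for CCs.

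A complete lack of reads was rare. Of the genes above 1 CPM in all 8 CC pools, 57 had no count in any oocyte, and a further 50 had 1 to 3 counts over all oocytes together. Of the genes above 1 CPM in all 8 oocytes, 64 had no count in any CC pool and 88 had 1 to 3. The 8 oocytes held 227646946 counts together, so that a count of 0 allows a level of up to 0.0132 CPM, the level of 3 counts over the group. For the CC pools, with 242421275 counts, this limit was 0.0124 CPM. Such limits cover counting error only, since reads amplified without molecular identifiers are not independent molecules.

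By mean level, 122 genes lay above 1000 CPM in CCs and 87 in oocytes, and 9 genes lay above it in both. Of the 87 oocyte genes, 16 had a mean of 1 CPM or less in CCs. None of the 122 CC genes had such a low mean in oocytes, and 19 of them lay between 1 and 10 CPM there. In the next class, 100 to 1000 CPM, 68 CC genes had a mean of 1 CPM or less in oocytes, and 177 oocyte genes had one in CCs.

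The identifiers given here are the pair with the largest fitted difference in each direction among genes with a mean of at least 100 CPM in the higher cell type and no overlap. In oocytes, ENSBTAG00000005377 ranged from 165 to 292 CPM with a median of 235. In the CC pools it had 2 counts each in M1 and M7 and none in the other 6. The summed level was 13800-fold higher in oocytes, with a 95% counting interval of 5400 to 50800 (exact binomial, 51949 against 4 counts). This interval and those below take reads as independent and leave out the spread between follicles. In edgeR the adjusted p was 4.02e-09.

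The level of ENSBTAG00000033128 in oocytes was 90.0 to 243 CPM, with a median of 191 and the lowest value in M4, the oocyte of lowest total. In CC pools it had 2 counts each in M4 and M5 and none in the other 6. The summed level was 11900-fold higher in oocytes (4650 to 43700), and the adjusted p from edgeR was 1.01e-08. The MGCs of the same follicles, sequenced by a bulk protocol, had no count of it in any of the 8 libraries, and for ENSBTAG00000005377 they ranged from 0 to 0.347 CPM.

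The mean in the 8 oocytes was 231 ± 43.1 CPM for ENSBTAG00000005377 and 185 ± 51 CPM for ENSBTAG00000033128 (SD, n = 8). Relative to their means, the SDs of the CC identifiers were larger. ENSBTAG00000005745 ranged from 52.0 CPM in M5 to 177 CPM in M2, with a median of 99.0 and a mean of 103 ± 47.5 (SD, n = 8). Of the oocytes, M3 had 2 counts and the other 7 had none. The summed level was 12500-fold higher in CC pools with an interval of 3470 to 103000, and the adjusted p from edgeR was 3.81e-09. In the matched MGCs it was lower than in the CC pool of the same follicle, at 0.748 to 20.4 CPM.

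A wider range was seen for ENSBTAG00000013929, from 25.6 CPM in the CC pool of M1 to 489 CPM in that of M3, with a median of 252 and a mean of 255 ± 178 (SD, n = 8). The low CC pools were those of M1 and M8. The oocytes of M3, M5 and M8 had 3, 4 and 1 counts, and the other 5 had none. The summed level was 7750-fold higher in CC pools with an interval of 3930 to 17900, and the adjusted p from edgeR was 7.87e-09. The levels of this identifier in MGCs overlapped those in CCs, at 25.6 to 562 CPM, and the MGCs of M8 were highest where the CC pool of M8 was among the lowest.

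**Figure D2:**
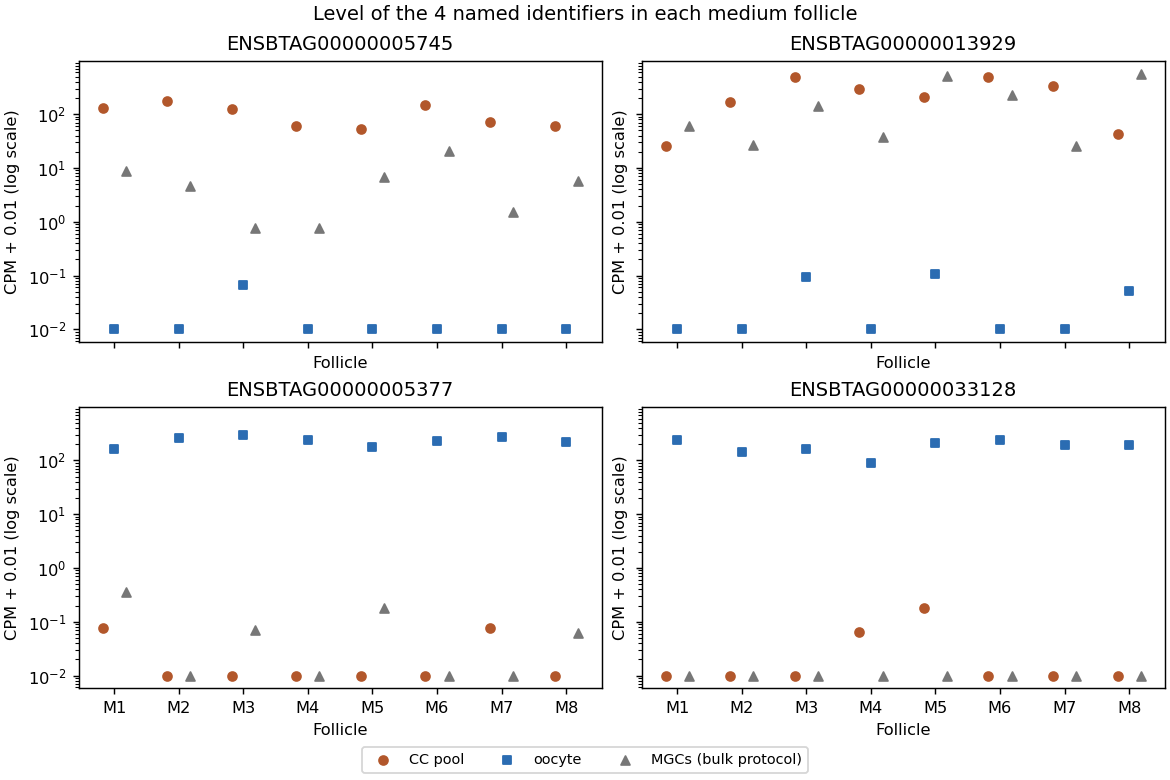
Level of the 4 identifiers in each follicle M1 to M8 as CPM + 0.01 on a log scale, with the CC pool (circles), the oocyte (squares) and the MGCs (triangles) side by side. A point at the bottom is a library with no count. CC pools lie above 25 CPM for the upper pair while 5 or 7 of the 8 oocytes have no count, and oocytes lie at 90.0 CPM or more for the lower pair while 6 of the 8 CC pools have no count.

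The counts of CC pools were concentrated in fewer genes than those of oocytes. The 100 most abundant genes of each library held 30.1% to 39.2% of the counts in CC pools with a median of 32.5%, and 18.5% to 21.8% in oocytes with a median of 20.2%. The groups did not overlap, and the CC pool was higher in 8 of 8 follicles, by 13.6 ± 3.68 percentage points (SD, n = 8). An exact two-sided sign-flip permutation test over the 8 follicles gave p = 0.00781, the smallest it can give, and 0.0156 after adjustment over the 6 library measures tested. The most abundant single gene held 3.18% to 7.2% of the counts in CC pools and 0.695% to 1.25% in oocytes.

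Seen from the other side, the most abundant 227 to 431 genes of a CC pool made up 50% of its counts, and an oocyte needed 742 to 930 genes. The mean difference of CC minus oocyte was -473 ± 111 genes (SD, n = 8), with the oocyte higher in 8 of 8 follicles (exact sign-flip permutation test, p = 0.00781, adjusted 0.0156). The pools of M1, M4 and M5 were the most concentrated, with 227, 275 and 283 genes. The oocytes lay closer together, with the ends of their range in M6 and M5.

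Different genes made up these top ranks. The CC pool and the oocyte of 1 follicle shared 6 to 13 of their 100 most abundant genes, with a median of 7.5. A pair of CC pools shared 49 to 83 with a median of 69, and a pair of oocytes shared 71 to 87 with a median of 80.5. Among the 100 most abundant genes, 36 were common to all 8 CC pools and 54 to all 8 oocytes. The rank correlation over the genes tested was 0.402 to 0.456 between CC pool and oocyte of the same follicle and 0.36 to 0.456 between those of different follicles.

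Which cell type had more genes depended on the limit of detection. With at least 1 count, CC pools held 14922 to 18468 genes with a median of 16370.5, and oocytes held 14442 to 16641 with a median of 15860.5. The CC pool was higher in 6 of 8 follicles by a mean of 871.5 genes, a difference within the spread between follicles (exact sign-flip permutation test, p = 0.0938, adjusted 0.112). It was 2664 genes with all 10 medium follicles (exact permutation p = 0.0234). That setting includes the 2 follicles that the study removed on mapping rates and mitochondrial percentages. Without M1 the difference was 1114 genes (exact permutation p = 0.0469). Thinned to the lowest total of 8442938 counts, the CC pool was higher in 4 of 8 follicles, with a mean difference of 206 ± 957 genes (SD, n = 8; exact permutation p = 0.555, adjusted 0.555). With a limit of 1 CPM the order turned: CC pools held 11223 to 12482 genes and oocytes 12450 to 13368, with the oocyte higher in 8 of 8 follicles (exact permutation p = 0.00781, adjusted 0.0156). The mean difference at this limit was -1015 genes for CC minus oocyte. CPM here was scaled to library totals alone.

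**Figure D3:**
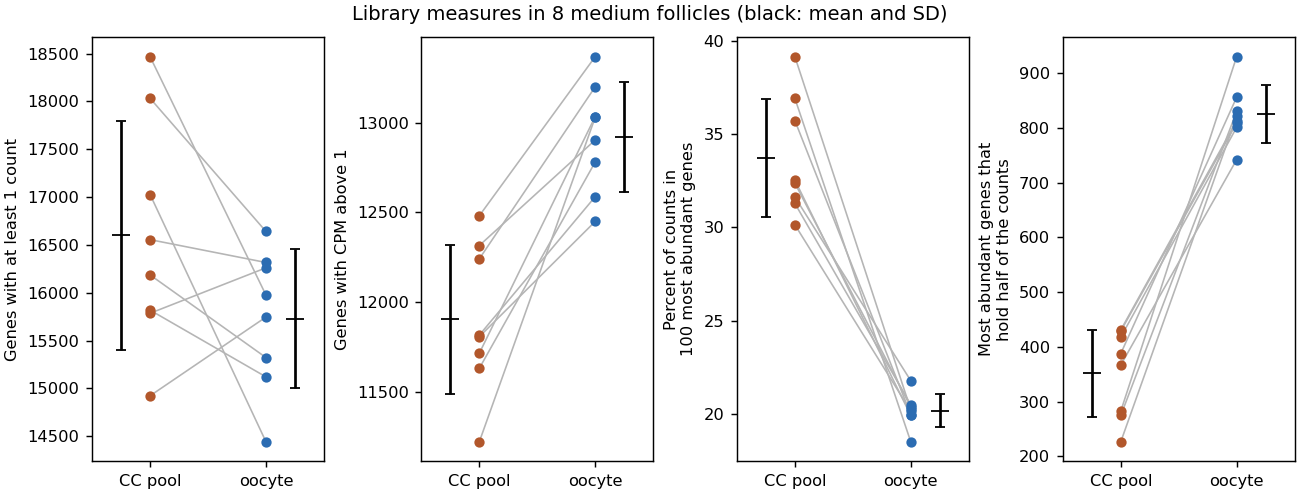
Measures of each library, with the CC pool and the oocyte of 1 follicle joined by a grey line and the mean with SD of the 8 libraries in black beside them; the vertical axes do not start at 0. The lines cross for genes with at least 1 count, rise in 8 of 8 follicles for genes above 1 CPM and for the genes that hold 50% of the counts, and fall in 8 of 8 for the share of the 100 most abundant genes.

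Gene by gene, the spread between follicles was mostly wider in CC pools than in oocytes. Over the 6224 genes tested with a mean above 10 CPM in both cell types, the median SD of log2(CPM + 1) across follicles was 0.6 in CC pools and 0.368 in oocytes. The SD was larger in CCs for 5035 of these genes (80.9%). Without M5 the medians were 0.516 and 0.363, and the SD was larger in CCs for 73.4%. The median distance of a library from the other 7 of its type was 0.316 to 0.691 in CC pools and 0.258 to 0.435 in oocytes on the same log2 scale. This distance was larger for the CC pool in 6 of 8 follicles and did not pass an exact sign-flip permutation test (p = 0.0938, adjusted 0.112). The mean difference of CC minus oocyte was 0.0948. With all 10 medium follicles, the 2 removed by the study included, it was -0.163 (exact permutation p = 0.479). It passed without M6 (0.125, exact permutation p = 0.0312) and without pairing (exact permutation p = 0.0331). A CC library holds several cells and an oocyte library 1 cell, and the amplification differed, so the spread of the cell types is not on equal terms.

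The differences were found again in follicles that had not been used to call them. When each follicle was left out in turn, 3769 to 4011 genes were called higher in CCs and 5693 to 5922 higher in oocytes in the remaining 7. In the follicle left out, 91.5% to 99.3% of the CC genes were higher in the CC pool, and 93.8% to 99% of the oocyte genes were higher in the oocyte. A difference beyond 2-fold was met by 79.8% to 94.8% of the CC genes and by 85.2% to 92.7% of the oocyte genes. For CC genes the lowest shares were in M1 and M5, and for oocyte genes in M6.

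Measured the same way, the genes called higher in CCs held 61.9% to 69.6% of the counts of the left-out CC pool and 6.83% to 9.94% of those of its oocyte. The genes called higher in oocytes held 65.5% to 71.3% of the counts of the left-out oocyte and 9.38% to 11.9% of those of its CC pool.

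**Figure D4:**
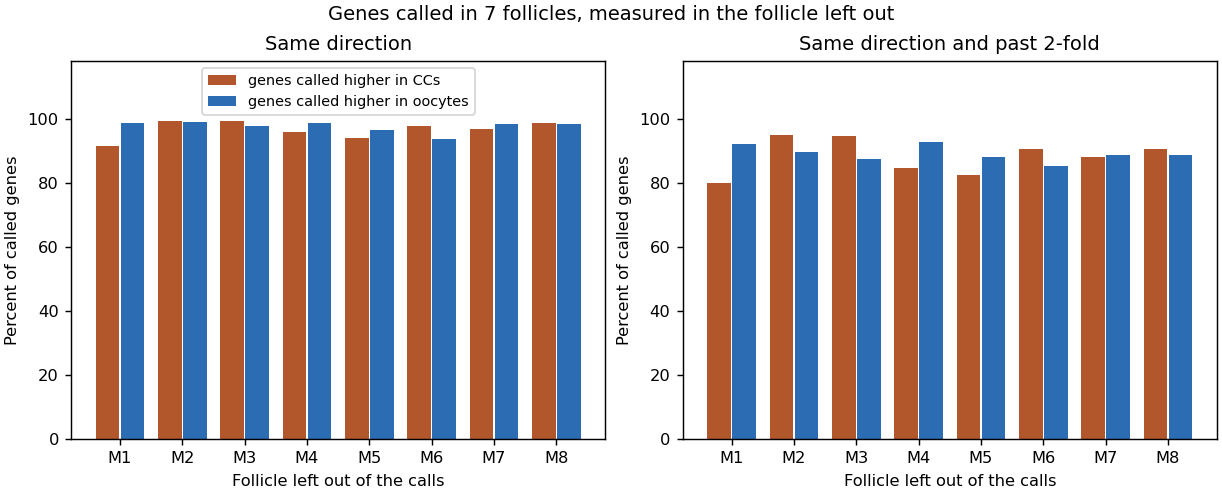
Percent of the genes called in 7 follicles that were higher in the same cell type (left) and higher by more than 2-fold (right) in the follicle left out, which is named under each pair of bars. Brown bars are genes called higher in CCs and blue bars genes called higher in oocytes; the lowest brown bars, 91.5% and 79.8%, are those of M1.

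The remaining 4336 genes (30.3%) were not called. Of these, 926 had an adjusted p under 0.05 from edgeR with a difference under 2-fold, and 572 differed by more than 2-fold without passing. For 1322 genes (9.23% of those tested) the log2 difference lay within 2-fold even at 2 standard errors on either side. Among the 123 genes with a mean of at least 300 CPM in both cell types, 42 were of this kind.

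MGCs of the same 8 follicles gave another level for each gene. Their libraries were made by another protocol, so that cell type and protocol cannot be told apart in any level set beside theirs, those of the named identifiers included. Of the genes higher in CCs, 94.6% had a mean above 1 CPM in MGCs, against 83.1% of all genes tested and 93.9% of the genes not called. Of the genes higher in oocytes, 67.4% had such a level. A mean below 0.1 CPM in MGCs was seen for 1036 of the genes higher in oocytes (17.4%), for 43 of the genes higher in CCs (1.07%) and for 7.8% of all genes tested. On the log2(CPM + 1) scale, the level in MGCs was nearer to CCs than to oocytes for 78.6% of the genes higher in CCs, for 81.3% of those higher in oocytes, for 57.2% of the genes not called and for 73.3% of all genes tested.

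The small and large follicles, which share no library with the medium ones, showed differences in the same direction for most genes. Small follicle S7, whose CC pool had a count for 1066 genes only, was left out. In the other 8 retained small follicles, 56.6% of the 13873 genes tested were called, 22.7% higher in CCs and 33.8% higher in oocytes. In 10 large follicles, 70.2% of 13812 genes were called, 29.1% higher in CCs and 41.1% higher in oocytes. Of the genes higher in CCs in medium follicles, 71.6% were called higher in CCs in small and 88.7% in large follicles. These made up 91.7% and 89.1% of the genes called higher in CCs there. Of the genes higher in oocytes in medium follicles, 74.2% were called higher in oocytes in small and 88.2% in large follicles, which was 94.1% and 92.4% of the calls there. A single gene was called in opposite directions, higher in CCs in medium and higher in oocytes in large follicles. Over the genes tested in both classes, Pearson's r of the log2 differences was 0.968 with small follicles (13617 genes) and 0.979 with large follicles (13639 genes); genes are not independent replicates, and no test was made.

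**Figure D5:**
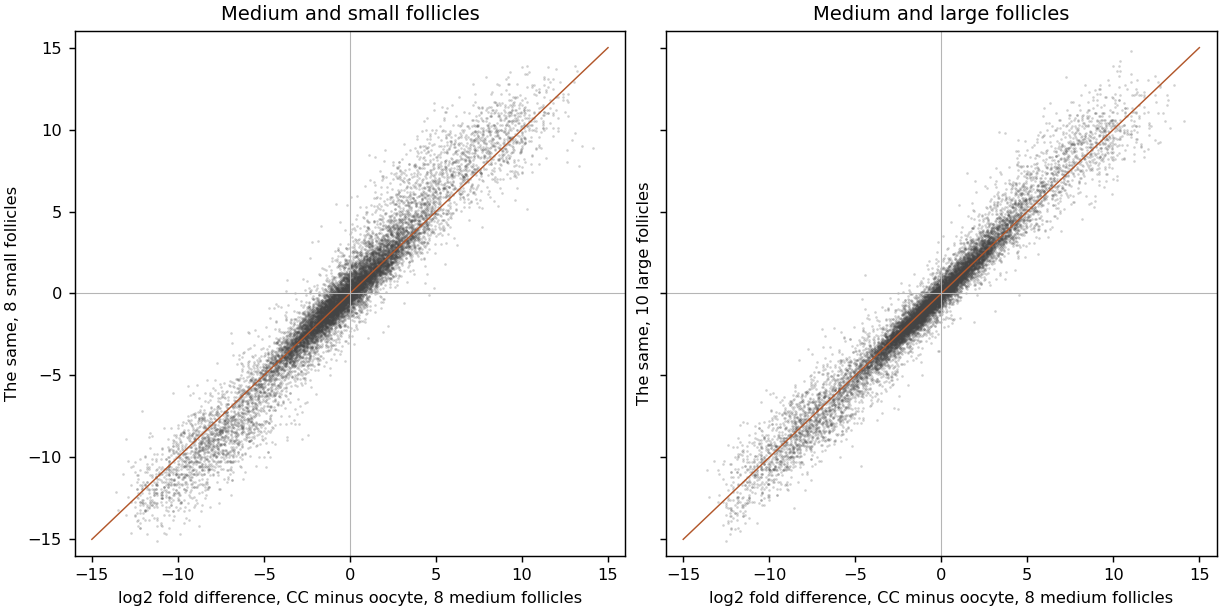
Log2 fold difference of CC minus oocyte in the 8 medium follicles (horizontal axis) against that in 8 small (left) and 10 large follicles (right), 1 point per gene, with the line of equal differences. Most genes lie on the same side of 0 in both, 12524 of 13617 with small follicles and 12966 of 13639 with large ones.

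Whether a gene's difference in medium follicles departed from that in another class was tested as an interaction over all 3 classes. In edgeR, 0 of 15254 genes passed an adjusted p of 0.05 for medium against small follicles and 0 for medium against large follicles. Both tests thus called 0% of the genes, and 1004 genes (6.58%) and 366 genes (2.4%) had an unadjusted p under 0.05. The second share lies below the 0.05 that genes without any difference would give, so 0 calls do not show equal differences. DESeq2 called 288 genes (1.89%) and 22 genes (0.144%). Of the 288, the difference was shifted toward CCs in medium follicles for 86 and toward oocytes for 202, and of the 22 for 11 each. With small follicle S7 included, 567 and 257 genes had an unadjusted p under 0.05 and 0 passed in either test. On simulated counts of 14203 genes, the CC level of 200 was raised 4-fold in medium follicles alone, whichever cell type was higher. For medium against small follicles, edgeR recovered 71 of these and called 1 other. The simulation gave both cell types the spread of the CC pools and had no effect of follicle, so its recovery need not hold for the data. DESeq2 was not simulated for the interaction. The 4 named identifiers kept their direction in both classes: with edgeR, the fitted log2 difference of ENSBTAG00000005745 was 13.89 in small and 12.09 in large follicles, against 13.08 in medium ones, and that of ENSBTAG00000013929 was 11.7 and 9.22 against 12.7. For ENSBTAG00000005377 it was -13.24 and -12.38 against -13.48, and for ENSBTAG00000033128 -13.52 and -12.68 against -13.01. With so few counts in the lower cell type, these fitted values depend on the prior count of the fit and are no bounds.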

How the data were processed

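The authors aligned the reads to ARS-UCD1.2 and counted those over exons with featureCounts; the methods name STAR and the submitters' processing notes HISAT2, version 2.2.1, which was not settled here. The deposited values are raw counts per Ensembl gene, from which CPM was computed with column totals. Libraries were paired by follicle number, since CC pool and oocyte came from 1 follicle. The correlation of their deviations from the group means was 0.02 to 0.32 over 8 pairs, with a median of 0.078. Only 2 of the 8 CC pools correlated best with their own oocyte, so the levels themselves show little of the pairing. edgeR 4.0.16 in R 4.3.3 was fitted with glmQLFit and glmQLFTest, follicle as block and library totals as offsets, with Benjamini-Hochberg adjustment over all genes tested. An alternative used DESeq2 1.42.0. On simulated counts with 200 of 14325 genes changed between CC and oocyte, edgeR recovered 123 of the 200 and called 6 unchanged genes. DESeq2 recovered 163 and called 74. Of the 40 raised 4-fold, edgeR called 34 and DESeq2 40. Apart from the changed genes, both cell types were given the mean and spread of the CC pools, unlike the data, where most genes tested were called. The interaction fit covered all retained follicles except small follicle S7, whose CC pool had counts for few genes. Library measures used Python 3.11.15 and scipy 1.17.1.

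The comparison, its members and lists were chosen with earlier results of these data known. Named markers, gene lists, mitochondrial shares and sequences were planned and not run, since 0 of 27270 identifiers were paired with a symbol. Identifiers were named by the largest log2 difference among genes called, with a mean of at least 100 CPM in the higher cell type and no overlap, at most 2 in each direction.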

Additional observations from a re-analysis of the deposited data

Results flagged for a closer look

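Of 30 sets of 8 values tested for a single distant value with Dixon's criterion, 4 were picked out, and chance picks about 1 in 20. The CC pool of M5 had a total of 11777136 counts against a median of 32828073 in CC pools. The same pool lay farthest from the other CC pools, with a median distance of 0.691 on the log2(CPM + 1) scale against a median of 0.409 over the 8 pools. Without M5, 3917 genes were higher in CCs and 5735 in oocytes.

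The other values belong to identifiers chosen for levels near 0 in the lower cell type. With nearly all values at 0 the criterion is met almost by construction, and the chance given above does not apply. The oocyte of M3 was the only one with counts of ENSBTAG00000005745, at 0.0565 CPM against a median of 0. The CC pool of M5 had 0.17 CPM of ENSBTAG00000033128 against a median of 0, which was 2 counts in the pool of lowest total.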

How the results depend on the processing

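Over 185 recomputed values, 174 were classed as unchanged in direction and side of the threshold. These include 19 for each of the 4 identifiers, and counts of genes, which have no direction. The 4 identifiers were past the threshold under every alternative run. They were chosen in these same libraries for the largest differences, so that result was nearly fixed in advance. Genes higher in CCs numbered 2905 to 4811 and genes higher in oocytes 4234 to 6441. Those counts were lowest with the 3 follicles the study called healthy (2905 and 4397) and with all 10 medium follicles (3392 and 4234). TMM gave 4801 and 5007. Leaving out a follicle gave 3769 to 4011 and 5693 to 5922.

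The interaction counts changed most. For medium against small follicles they were 288 with DESeq2, 9 with no replicate block and 0 to 2 when a medium follicle was left out, the 2 without M5. For medium against large follicles they were 22 with DESeq2, 9 with no replicate block and 0 when any one medium follicle was left out. The cause was not tested, and no small or large follicle was left out in turn. The pairing by follicle changed no other count by more than 1.5 times.

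CC minus oocyte in genes with a count was 2664 with all 10 medium follicles, the 2 removed by the study included (exact permutation p = 0.0234). Leaving out a follicle gave 626.7 to 1114 (without M1, exact permutation p = 0.0469). With a limit of 1 CPM it was -1015. The distance of a library from its own type, CC minus oocyte, was -0.163 with all 10 follicles, the 2 removed included (exact permutation p = 0.479). It was 0.0588 to 0.125 when 1 of the 8 was left out (without M6, 0.125, exact permutation p = 0.0312). Without pairing it was 0.0948 (exact permutation p = 0.0331). Detection after thinning, this distance, the genes holding 50% of the counts, and the spread and similarity of CC pools without M5 were chosen after seeing the data. Not run were the mitochondrial share and the top 100 share without mitochondrial genes, which need gene names. Counts without molecular identifiers and 8 follicles limit the precision.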
